A study of Mus musculus with 8 samples.

Results

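The genes described here are the 5 that set which fast transmitter a cortical neuron releases: *Slc17a7* and *Slc17a6* for glutamate, and *Gad1*, *Gad2* and *Slc32a1* for GABA. They were chosen by name from the count table of the series, with every gene represented by its transcript of lowest Ensembl number, and they are 5 of 38031 genes in that table. All 5 passed the filter on low counts (above 8 CPM, the count of a gene scaled to the size of its library, in 4 or more libraries), which left 9959 genes to be tested. The libraries were made from total RNA of the primary motor cortex (M1) of male Swiss Webster mice, with 4 libraries of *Fezf2 shRNA*-treated tissue and 4 of *non-silencing shRNA*-treated tissue (control). Mice were injected at P21-P25 and M1 was dissected at P49-P53. Both groups carried the same lentivirus, in which a *Synapsin I* promoter drives an mCherry reporter together with the shRNA, so that the controls differ only in the shRNA. That promoter is active in neurons, whereas the dissected tissue held all layers and the meninges and was chosen by its mCherry fluorescence without sorting cells. Transduced and untransduced neurons, and those with and without *Fezf2*, were therefore measured together. The titles number the libraries 1 to 4 in each group, and the study's methods give 4 mice for each treatment.

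Excitatory neurons load glutamate into synaptic vesicles with the transporters VGLUT1 (*Slc17a7*) and VGLUT2 (*Slc17a6*). Inhibitory neurons make GABA from glutamate with the decarboxylases GAD67 (*Gad1*) and GAD65 (*Gad2*), and load it with the vesicular transporter VGAT (*Slc32a1*). In the neocortex VGLUT1 is the main transporter of pyramidal neurons, whereas VGLUT2 is best known from thalamic axons, whose cell bodies lie outside the cortex. During development the transcription factor *Fezf2* directs the excitatory identity of layer 5 projection neurons, with *Slc17a7* switched on and *Gad1* kept off, and the comparison asks whether the same genes move when *Fezf2* is reduced in mature M1.

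The shRNA has to match *Fezf2* and not the 5 genes. Its 19-base sense sequence, read 5′ to 3′, is shown on each line below with the longest stretch found in any annotated transcript of the gene in capitals.
*Fezf2*: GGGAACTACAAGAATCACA
*Slc17a6*: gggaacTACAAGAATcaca
*Gad1*: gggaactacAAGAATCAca
*Gad2*: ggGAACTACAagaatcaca
*Slc32a1*: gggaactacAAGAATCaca
*Slc17a7*: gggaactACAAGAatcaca
The whole sequence was found in *Fezf2* alone among 55450 annotated genes. The longest stretches in the transmitter genes were 9 bases in *Slc17a6*, 8 in *Gad1* and *Gad2*, 7 in *Slc32a1* and 6 in *Slc17a7*. A stretch of at least 9 bases was found in 10.5% of all annotated genes, and one of at least 8 bases in 29.3%.

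The upstream windows of *Slc17a7* and *Gad1* are shown because these are the genes that *Fezf2* switches on and off in development. Each is the 250 bases before the RefSeq start (GRCm38.p6, plus strand, 5′ to 3′), with E-boxes (CANNTG, the same on both strands) in capitals. GENCODE places the start of *Gad1* earlier, so that the last 87 bases of its window lie inside the interval counted here.
*Slc17a7*, chr7:45163671-45163920: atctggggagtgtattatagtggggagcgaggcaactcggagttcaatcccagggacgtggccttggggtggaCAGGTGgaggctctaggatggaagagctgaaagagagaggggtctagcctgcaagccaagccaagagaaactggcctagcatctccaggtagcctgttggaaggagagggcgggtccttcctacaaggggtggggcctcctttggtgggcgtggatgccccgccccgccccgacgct
*Gad1*, chr2:70561879-70562128: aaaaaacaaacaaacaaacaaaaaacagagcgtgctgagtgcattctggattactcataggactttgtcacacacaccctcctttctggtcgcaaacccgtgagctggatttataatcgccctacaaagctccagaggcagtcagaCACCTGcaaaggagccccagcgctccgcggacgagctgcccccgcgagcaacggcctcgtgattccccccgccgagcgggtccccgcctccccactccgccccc
Each window held 1 E-box, and 66.2% of the 32851 windows of this length in the table held at least 1. The GC content was 61.2% for *Slc17a7* and 58.0% for *Gad1*, against a median of 52.4% over all windows. These matches describe letters only, and none was tested as a binding site.

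*Fezf2*, the targeted gene, had 688, 767, 735 and 702 normalised read counts in the control libraries and 621, 583, 568 and 592 in the *Fezf2 shRNA* libraries (normalised counts were put on the scale of a library of mean effective size). The groups did not overlap. The log2 fold change was -0.29 (standard error 0.0781), with an adjusted p of 0.0824 in the edgeR quasi-likelihood test (Benjamini-Hochberg over all genes tested), so that *Fezf2* did not pass the threshold used throughout, an adjusted p of at most 0.05 and a log2 fold change of at least 0.2 in either direction. It passed in DESeq2, with an adjusted p of 0.0256, whereas with an offset for gene length its log2 fold change was -0.18 (adjusted p = 0.458).

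None of the 5 transmitter identity genes passed the threshold. Across all genes tested 208 passed, which is 2.09%, with 195 higher and 13 lower in *Fezf2 shRNA*-treated M1. At an unadjusted p under 0.05 the count was 0 of 5, where 1947 of all genes tested (19.6%) were. DESeq2 also called 0 of 5, and 7.37% of all genes tested with its prior or 7.55% without. Beside such shares, a count of 0 among 5 genes is not read as a result about them. In none of the 5 did the libraries of the groups separate without overlap, whereas 11.8% of all genes tested did. The normalised counts by library and the fold changes with their intervals are plotted by gene.

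**Figure D1:**
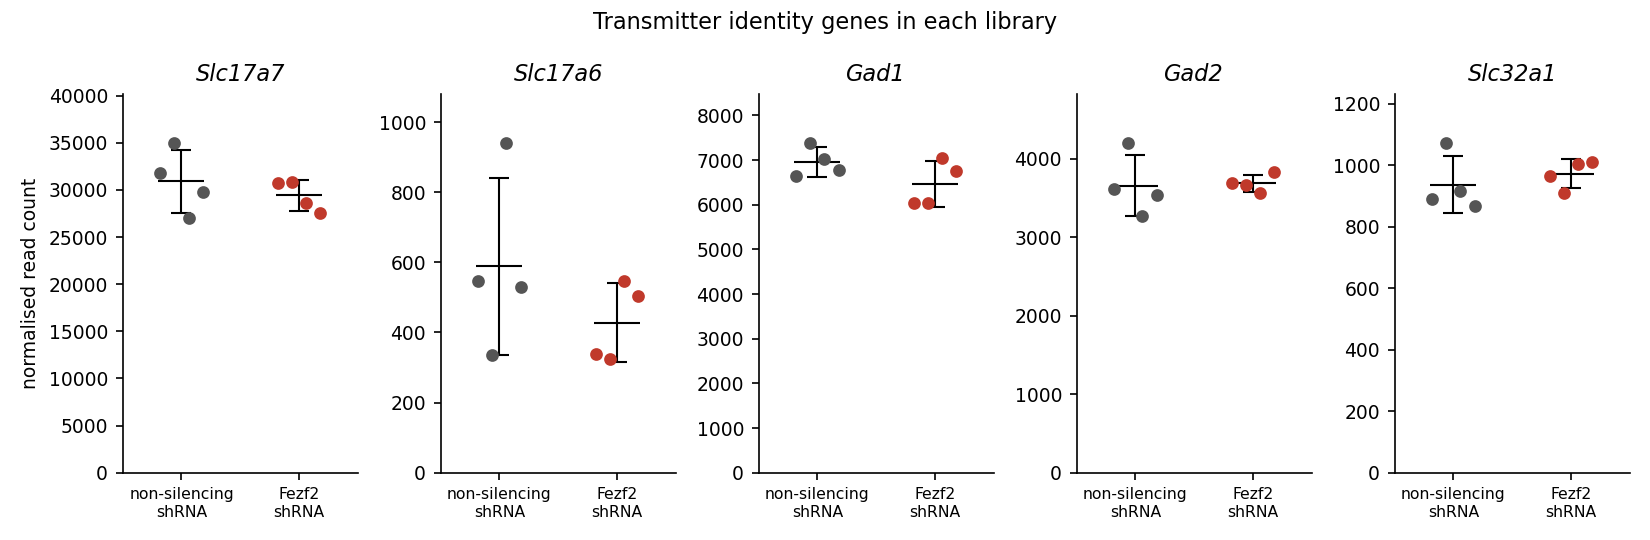
Normalised read counts (y axis, from 0, with its own scale in each panel) of the 5 genes in each of the 4 control (grey) and 4 *Fezf2 shRNA* (red) libraries, with the mean and SD in black. In every panel the groups overlap, and control library 3 stands highest for *Slc17a6* with 940.3 counts.

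*Slc17a7* (ENSMUSG00000070570; chr7:45163949-45176142, GRCm38, 12 exons) encodes VGLUT1 and had the most counts of the 5 genes. The control libraries had 31779, 34971, 27012 and 29799.8 normalised counts, and the *Fezf2 shRNA* libraries had 30730.1, 30839, 28646 and 27502. All 4 treated libraries lay inside the control range, and 3 of the 4 lay under the control median. The means were 29429 ± 1634 (SD, n = 4) and 30890.4 ± 3350.2 (SD, n = 4), and the log2 fold change was -0.07 ± 0.0872 (standard error; edgeR, adjusted p = 0.682). Its 95% interval ran from -0.26 to 0.12, a change between -16.6% and 8.87%, and the two-sided exact permutation test over the 8 libraries gave p = 0.543 (the smallest it can give with 4 against 4 is 0.0286). With the gene-length offset the estimate turned to 0.016.

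*Slc17a6* (ENSMUSG00000030500; chr7:51622006-51671119, 12 exons) encodes VGLUT2 and had the largest difference of the 5 and the widest spread. The control libraries had 547, 335, 940.3 and 530.1 normalised counts, and the *Fezf2 shRNA* libraries had 338, 325, 546 and 504. Control library 3 lay far above the rest, control library 2 lay with the lowest treated libraries, and 1 treated library lay below every control. The means were 428 ± 113 (SD, n = 4) and 588 ± 254 (SD, n = 4). The log2 fold change was -0.46 ± 0.281 (standard error), with an edgeR adjusted p of 0.374 and an exact permutation p of 0.257, and its 95% interval ran from -1.08 to 0.16. Without control library 3 it was -0.13, and without control library 2 it was -0.65 (edgeR, unadjusted p = 0.0228, adjusted p = 0.147). DESeq2 gave -0.15 with its prior and -0.45 without. The unadjusted p of *Slc17a6* was under 0.05 in 3 of 19 alternatives, and its adjusted p was at least 0.147 in all of them.

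The spread of *Slc17a6* was larger than its counting error. Its coefficient of variation was 43.1% in the controls, higher than that of 99.5% of the genes tested, and 26.5% in *Fezf2 shRNA*-treated M1, where the count alone would give about 4.43%. The median over all genes tested was 8.26% in the controls and 7.69% in treated M1. A fold change of this gene is therefore known less well than that of the other members, whose coefficients of variation ran from 4.71% to 10.8% in the controls. The summed level of 8 thalamic and claustral markers was 84.3, 91.2, 83.3 and 96.7 CPM in control libraries 1 to 4 and 95.3, 107, 107 and 101 CPM in the treated ones. The lowest sum was that of control library 3, and 3 of the 4 treated libraries lay above every control. The largest parts of the sum were *Gng2*, with a mean of 2199 normalised counts in treated M1 and 1829 in the controls, and *Synpr*, with 2046 and 1692. A relation of this sum to the spread of *Slc17a6* was not tested.

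*Gad1* (ENSMUSG00000070880; chr2:70562042-70602014, 17 exons) encodes GAD67, which makes most of the GABA in the brain. The control libraries had 6636, 7385, 7026 and 6781 normalised counts, and the *Fezf2 shRNA* libraries had 6033, 6044, 7049 and 6755. Treated libraries 1 and 2 lay below every control, and treated libraries 3 and 4 lay inside the control range. The means were 6470.3 ± 513 (SD, n = 4) and 6957 ± 327 (SD, n = 4). The log2 fold change was -0.10 ± 0.0671 (standard error), with an edgeR adjusted p of 0.399 and an exact permutation p of 0.2, and its 95% interval, from -0.25 to 0.04, allows a change between -16.1% and 3.06%. A rise by more than that in the dissected tissue as a whole was outside the interval. The level in transduced or *Fezf2*-expressing neurons alone was not measured.

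*Gad1* had 8 transcripts in the table, and a nested one divides the gene at chr2:70587136. The part before it, 25095 bp and 4.45% exonic, held 31.4% of the gene's counts and had a log2 fold change of -0.05 (adjusted p = 0.715). The part after it, 14878 bp and 15.04% exonic, had -0.13 (adjusted p = 0.342). Neither passed the threshold, and the difference between the parts was not tested. The pseudogene *Gad1-ps*, whose reads could be mistaken for those of *Gad1*, had 1 to 12 counts per library. The antisense gene *Gad1os* overlaps the 5′ end of *Gad1*, with 99 exonic bases inside it, and had 286 to 452 counts per library over its own interval, most of which lies outside *Gad1*. The counting is not stated to use strand, so that reads of both cannot be told apart in the overlap.

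*Gad2* (ENSMUSG00000026787; chr2:22622205-22693874, 16 exons) encodes GAD65, the form concentrated at nerve terminals, and had the estimate nearest to 0. The control libraries had 3617, 4198, 3274 and 3531 normalised counts, and the *Fezf2 shRNA* libraries had 3687, 3668, 3566 and 3828. The treated libraries lay together inside the wider control range, with a coefficient of variation of 2.92% against 10.7%. The means were 3687 ± 108 (SD, n = 4) and 3655 ± 390.3 (SD, n = 4), and the log2 fold change was 0.013 ± 0.0754 (standard error), with an edgeR adjusted p of 0.941 and an exact permutation p of 0.8. Its 95% interval was -0.15 to 0.18. The sign of so small a value was not stable, and it was -0.042 with the gene-length offset and 0.086 without control library 2.

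*Slc32a1* (ENSMUSG00000037771; chr2:158610767-158615748, 2 exons) encodes VGAT, without which GABA is not packed into vesicles. The control libraries had 891, 1073, 918 and 867 normalised counts, and the *Fezf2 shRNA* libraries had 966, 909, 1003 and 1011. All 4 treated libraries lay inside the control range, none of them under its median, and control library 2 was the highest of the 8. The means were 972 ± 46.9 (SD, n = 4) and 937 ± 92.7 (SD, n = 4), and the log2 fold change was 0.05 ± 0.0851 (standard error), with an edgeR adjusted p of 0.753, an exact permutation p of 0.486 and a 95% interval from -0.13 to 0.24. With the gene-length offset it was 0.17 (adjusted p = 0.602), and without control library 2 it was 0.12. The antisense gene *Gm14205* lies inside it, and here too reads of both cannot be told apart. That stretch held 30.2% of the counts, and the rest of the gene had a log2 fold change of 0.04 (adjusted p = 0.840).

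**Figure D2:**
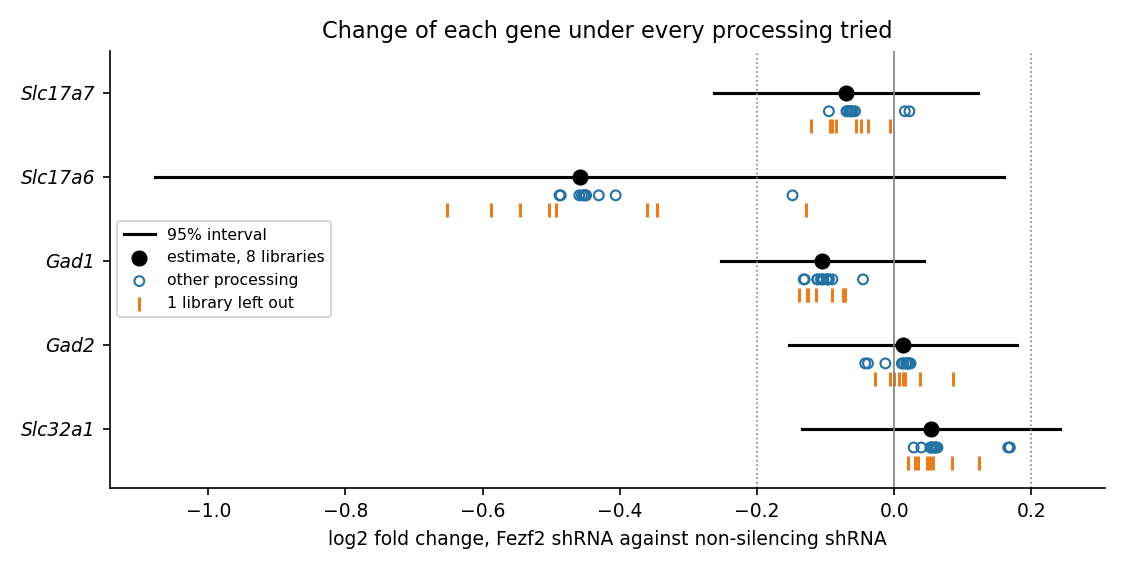
Log2 fold change (x axis, *Fezf2 shRNA* against *non-silencing shRNA*) of each gene with its 95% interval (black), under other processing (blue circles, parts of genes included) and with 1 library left out (orange ticks). Dotted lines mark 0.2 in either direction. All 5 intervals include 0, and *Slc17a6*, at -0.46, is the only estimate outside the dotted lines.

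In this count table each value covers the whole interval of a transcript, introns included, and the fold change of a gene moved with the length of that interval. Genes shorter than 10 kb had a median log2 fold change of -0.12, those of 10 to 30 kb -0.07, those of 30 to 100 kb 0.013, those of 100 to 300 kb 0.15 and longer ones 0.29, against -0.03 for the whole set. *Slc17a7* spans 12.2 kb, and its -0.07 was at the median of its class. *Gad2* spans 71.7 kb, and its 0.013 was also at the median of its class. *Slc32a1*, with 4.98 kb, was above the upper quartile of its class (-0.04), whereas *Gad1*, with 40.0 kb, and *Slc17a6*, with 49.1 kb, were below the lower quartile of theirs (-0.06).

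The balance of the glutamate and GABA identities within a library can be read from ratios of counts, in which the library size cancels. The ratio of *Slc17a7* to *Gad1* counts was 4.79, 4.74, 3.84 and 4.39 in the control libraries and 5.09, 5.10, 4.06 and 4.07 in the *Fezf2 shRNA* libraries. On the log2 scale the means were 2.15 ± 0.15 and 2.19 ± 0.19 (SD, n = 4 each), and the difference of 0.04 was smaller than the SD of either group. Both groups held libraries near 4 and libraries near 5. The ratios of *Slc17a7* to the other GABA genes had differences of the opposite sign. That to *Gad2* had log2 means of 3.08 ± 0.04 in the controls and 3.00 ± 0.10 in treated M1 (SD, n = 4 each), a difference of -0.08, with 2 of the 4 treated libraries below every control. That to *Slc32a1* had 5.04 ± 0.12 and 4.92 ± 0.15 (SD, n = 4 each), a difference of -0.12. The ratio of *Slc32a1* to *Gad1*, of GABA loading to GABA synthesis, was 0.134, 0.145, 0.131 and 0.128 in the controls and 0.160, 0.150, 0.142 and 0.150 in treated M1. On the log2 scale it was higher by 0.16, against SDs of 0.08 and 0.07, and 3 of the 4 treated libraries lay above every control. This ratio was 1 of 6 computed, and no test was run on any of them. *Gad1* to *Gad2* differed by -0.13 on the log2 scale, with SDs of 0.12 and 0.13.

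The order of the levels was examined per kb, since the genes differ in length. Per kb of the whole interval *Slc17a7* had 43.9 CPM, *Slc32a1* 3.40, *Gad1* 2.98, *Gad2* 0.910 and *Slc17a6* 0.184, as means over the 8 libraries. The range of *Slc32a1* (3.09 to 3.82) overlapped that of *Gad1* (2.68 to 3.28), although *Slc32a1* was higher in each of the 8 libraries, and no other neighbours in this order overlapped. Per kb of exon the order was *Slc17a7* with 184 CPM, *Gad1* with 35.5, *Gad2* with 11.4, *Slc32a1* with 6.06 and *Slc17a6* with 2.18, and no neighbours overlapped. The place of *Slc32a1* thus depends on the scale: 56.1% of its interval is exonic, against 8.39% of that of *Gad1*. On both scales the ends of the order were the same, with the VGLUT1 gene highest and the VGLUT2 gene lowest.

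**Figure D3:**
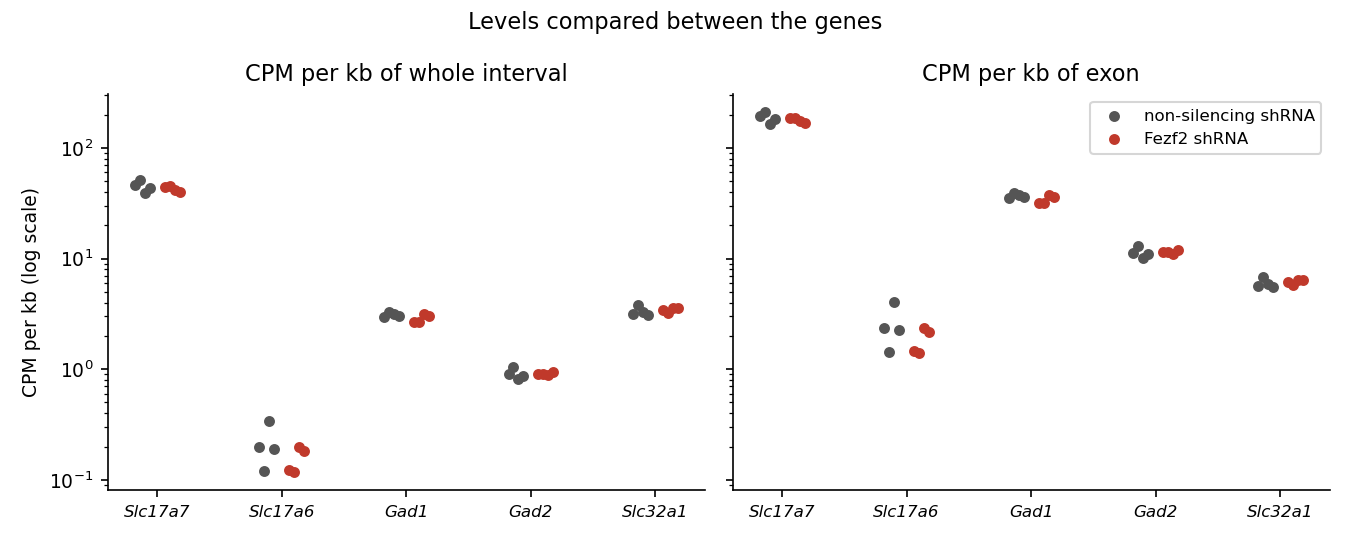
Level of each gene in CPM per kb of its whole interval (left) and per kb of exon (right), on a log axis, with a point for each control (grey) and *Fezf2 shRNA* (red) library. *Slc17a7* is highest and *Slc17a6* lowest on both scales, and *Slc32a1* lies above *Gad1* on the left and below *Gad2* on the right.

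Levels of the 5 genes were also compared across the 8 libraries, in 10 pairs. The largest correlation of log2 CPM was between *Slc17a6* and *Gad2*, with r = -0.75 (exact permutation p = 0.0443, adjusted over 10 pairs 0.131) and Spearman's rho = -0.74 (exact permutation p = 0.0458, adjusted 0.415). Without the 2 libraries farthest from the median of the gene named first in a pair, r was -0.68 here. After the group means were removed it was -0.78. *Slc17a7* and *Gad2* had r = 0.72 (exact permutation p = 0.0506, adjusted 0.131) with rho = 0.52 (p = 0.197, adjusted 0.492), and without 2 libraries r turned to -0.39, so that this relation rests on those libraries. With all 8 libraries and the group means removed it was 0.78. *Gad2* and *Slc32a1*, which are both used by GABA neurons, had r = 0.71 (exact permutation p = 0.0397, the smallest of the pairs, adjusted 0.131) with rho = 0.67 (exact permutation p = 0.0831, adjusted 0.415), without 2 libraries r was 0.57, and after the group means were removed it was 0.72. *Slc17a7* and *Slc17a6* had r = -0.70 (exact permutation p = 0.0523, adjusted 0.131) with rho = -0.52 (p = 0.197, adjusted 0.492) by exact permutation, without 2 libraries r was -0.37, and after the group means were removed it was -0.94. *Slc17a7* and *Gad1* had r = 0.02 (exact permutation p = 0.959). None of the 10 pairs passed after adjustment.

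Genes of the same pathways were also examined, from 2 lists of genes that synthesise, carry or break down glutamate (15 genes) and GABA (6 genes). Of these, 14 and 4 passed the filter, and none of the 18 passed the threshold, beside 2.09% over the whole set. The median log2 fold change was -0.02 for the glutamate list and -0.10 for the GABA list, where all 4 tested genes were lower, against -0.03 for all genes tested.

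**Figure D4:**
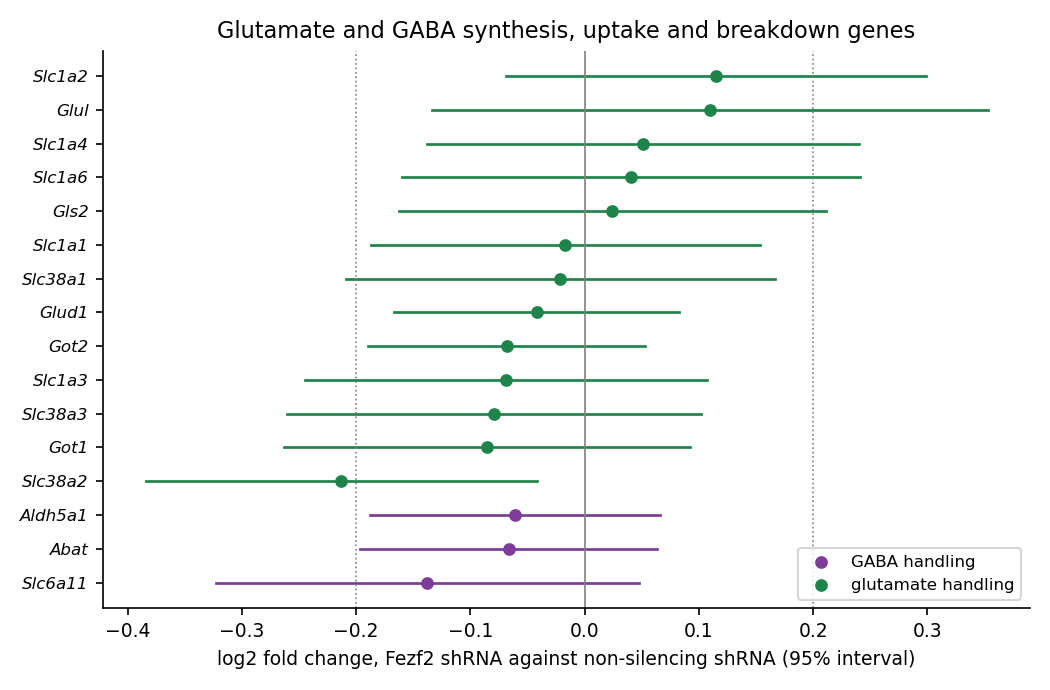
Log2 fold change (x axis, *Fezf2 shRNA* against *non-silencing shRNA*) with its 95% interval for 16 tested genes of glutamate (green) and GABA (purple) synthesis, uptake and breakdown. Dotted lines mark 0.2 in either direction. The interval of *Slc38a2*, at -0.21, lies below 0, and none of the genes drawn passed after adjustment.

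In the GABA list *Slc6a11*, the GABA transporter GAT3 of astrocytes, had a log2 fold change of -0.14 (edgeR, adjusted p = 0.372). In the glutamate list *Slc38a2*, a carrier of glutamine, had -0.21 (standard error 0.0776, adjusted p = 0.173), and its groups overlapped through control library 3. With the gene-length offset *Slc38a2* was -0.13 (adjusted p = 0.637). *Slc1a2*, the main glutamate transporter of astrocytes, had 0.11 (adjusted p = 0.456) and *Got2*, a mitochondrial aminotransferase, -0.07 (adjusted p = 0.503).

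The third vesicular glutamate transporter gene, *Slc17a8* (VGLUT3; chr10:89574020-89621253), belongs to the glutamate list above. It was under the filter, so it was not tested there, and is described because of its values, which were seen first. It had 90.5, 92.9, 93.4 and 112 normalised counts in the controls and 62.6, 44.2, 56.7 and 62.3 in treated M1. Every treated library lay below every control. In the fit over the 16481 genes with more than 1 CPM its log2 fold change was -0.78 ± 0.188 (standard error; edgeR, adjusted p = 0.0875), and over 29623 genes with no filter it was -0.77 (adjusted p = 0.159). It did not pass the threshold in either. In cortex this gene is known from a small class of interneurons, and at 44 to 115 reads per library its level rests on few reads beside the other members.

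None of the 10 measured genes of acetylcholine, monoamine, glycine and histamine neurons passed the filter, and their summed level was 9.12 to 11.5 CPM in the controls and 9.01 to 13.0 CPM in treated M1. Most of that sum came from *Slc18a2*, the vesicular monoamine transporter, with 455 ± 91.5 normalised counts in treated M1 and 390 ± 59.1 (SD, n = 4) in the controls. The other 9 genes had mean levels of at most 0.723 CPM, and *Slc6a3*, the dopamine transporter, had no read in 4 of the 8 libraries.

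Regulators of the transmitter identities were described from 2 lists. Of 12 regulators of glutamatergic neurons, *Fezf2* among them, 10 were tested and none passed the threshold, beside 2.09% of all genes tested. Their median log2 fold change was -0.09, with 4 higher and 6 lower. An unadjusted edgeR p under 0.05 was found for 5 of the 10, beside 19.6% of all genes tested. In 3 of the 10 the groups did not overlap, beside 11.8% of all genes tested. Of 12 regulators of GABAergic neurons 3 were tested and none passed, with a median of -0.07. *Dlx1* had -0.11 (adjusted p = 0.530) and *Lhx6* -0.07 (adjusted p = 0.725), both of which act in interneurons born in the ventral forebrain.

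In dissected tissue, fewer cells of a type and less RNA per cell cannot be told apart, so the markers of the cells that use these genes are given beside them. None of the tested genes in 11 lists of cell type markers passed the threshold, beside 2.09% of all genes tested. Most of the lists also held genes under the filter, which were not tested. Of 8 glutamatergic neuron markers all were tested, with a median log2 fold change of 0.10 and a summed level of 1399.7 to 1576 CPM in the controls and 1418 to 1669 CPM in treated M1. Of these 8 markers 5 were higher and 3 lower, with *Cux2* at 0.27 (edgeR, adjusted p = 0.279) and *Camk2a* at 0.16 (adjusted p = 0.281). *Cux2* spans 188 kb, in a length class with a median of 0.15, and *Camk2a* 60.8 kb, in a class with a median of 0.013. The medians of the marker lists were not corrected for gene length. Of 9 GABAergic interneuron markers 7 were tested, with a median of -0.08 and sums of 441 to 528 CPM and 439 to 563 CPM. Of these 7 markers 2 were higher and 5 lower. *Reln* had 0.20 (adjusted p = 0.172) and *Pvalb*, the marker of fast-spiking cells, -0.30 (adjusted p = 0.232). *Reln* spans 459 kb, in the class above 300 kb with a median of 0.29, and *Pvalb* 13.1 kb, in a class with a median of -0.07. For 9 general neuron markers the median was 0.00041, with 5 higher and 4 lower. *Rbfox3* had 0.28 (edgeR, adjusted p = 0.0996) and *Syt1* 0.19 (adjusted p = 0.207). Both span more than 300 kb, a length class with a median of 0.29.

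Among the lists the median farthest from 0 was that of the oligodendrocyte markers. All 6 oligodendrocyte markers were lower, with a median of -0.53, *Cnp* at -0.43 and *Mog* at -0.58, and with sums of 1087 to 1974 CPM in the controls and 811 to 1330.4 CPM in treated M1. Of the astrocyte markers 5 of 6 were tested, with a median of -0.20, *Fgfr3* at -0.20 and *Aqp4* at -0.22, and sums of 265 to 339 CPM and 221 to 288 CPM. Among the microglia markers the median was 0.03, with *Csf1r* at 0.08. The medians were -0.08 for precursors of oligodendrocytes (*Gpr17* -0.31, *Pdgfra* -0.06), -0.11 for striatal neurons (*Penk* -0.22, *Ppp1r1b* -0.20) and 0.27 for thalamic and claustral cells, where 3 of 8 genes were tested (*Synpr* 0.27, *Gng2* 0.27, *Plekhg1* -0.11). *Synpr* spans 331 kb, a length class with a median of 0.29, and *Gng2* 102 kb, a class with a median of 0.15. Of the 5 untested genes of that list, *Prkcd* had 189 normalised counts in treated M1 against 142 in the controls. *Tcf7l2* had 181 against 148 and *Lef1* 176 against 163, whereas *Nr4a2* had 315 against 316 and *Synpo2* 177 against 182. For endothelial and meningeal cells 1 gene each was tested, *Slco1a4* with -0.24 and *Ptgds* with -0.13. The part of these shifts in the values of the transmitter genes was not tested.

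The genes whose level followed each transmitter gene most closely were sought among the other 9958 tested, by Pearson's r of log2 CPM over the 8 libraries. For *Slc17a7* these were *Osbp* (r = 0.99), *Pcbp1* (0.95) and *Myadm* (0.95), and for *Slc17a6* they were *Dpysl3* (0.96), *Pcp4l1* (0.96) and *3110056K07Rik* (0.95). For *Gad1* they were *Cplx1* (0.96), a regulator of vesicle release, *Nxph3* (0.95) and *Scn4b* (0.94). *Gad2* was followed by *Kmt2d* (0.98), *Gm26918* (0.97) and *Plbd2* (0.97), and *Slc32a1* by *Slc35f3* (0.95), *Ephb1* (0.95) and *Hspa12a* (0.93). None of the 15 passed the threshold, and none is another transmitter gene. *Osbp* kept an r of at least 0.987 when any 1 library was left out. These are the highest of 9958 values over the same 8 libraries, which share their scaling, and are a description only.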

How the data were processed

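Total RNA libraries of M1 (4 of each treatment, grouped by their titles) were compared. The authors trimmed the reads, mapped them to mm10 with tophat2 (2.1.1 in the submitters' notes) and made the deposited raw counts per Ensembl transcript with BEDTools multiCov (2.26.0). Whether strand was used is not stated. The authors' DESeq2 table (base means, fold changes, Wald statistics, p-values) holds their own comparison and was not used.

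Of 94647 transcripts 91320 were found in GENCODE M21 (GRCm38), and those not found held 1.82% of counts. Tests used edgeR 4.0.16 (TMM, quasi-likelihood, two-sided, no covariate) in R 4.3.3, fitted to all genes above 8 CPM in 4 or more libraries, with Benjamini-Hochberg adjustment. Correlations used a prior count of 2. Library totals were 54684016 to 58003814 counts, and intervals are 95%. Steps were tested on simulated data. Alternatives were other scalings, filters, DESeq2 1.42.0, a replicate block, a gene-length offset (loess span 0.3), the widest transcript, each library left out and, added after the data were seen, parts of genes. Python 3.11.15 with scipy 1.17.1 was used for the rest.

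The 5 genes and all lists were chosen with earlier results of these data known. Named genes are the 5, *Fezf2*, the handling genes with the 6 smallest p, the 2 with the smallest p in each regulator and marker list, and the 3 most like each of the 5. Some genes under this rule are not reported here, and they remain in the counts and medians of their lists. *Slc17a8*, *Slc18a2*, *Slc6a3*, *Plekhg1*, *Prkcd*, *Tcf7l2*, *Lef1*, *Nr4a2*, *Synpo2*, *Gad1-ps*, *Gad1os* and *Gm14205* were named after their values were seen. Whether each library is 1 animal rests on the study's methods, and otherwise p-values measure the spread between these samples.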

Additional observations from a re-analysis of the deposited data

How the results depend on the processing

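None of the 5 transmitter genes and none of the glutamate and GABA handling genes passed the threshold under any alternative run. *Slc17a6*, *Gad1* and *Slc32a1* kept their direction. *Slc17a7* turned to 0.016 with the gene-length offset and to 0.022 with replicate block and gene-length offset. *Gad2* turned to -0.013 with library totals, -0.042 with the gene-length offset and -0.038 with replicate block and offset. With 1 library left out the log2 fold change ran from -0.12 to -0.0053 for *Slc17a7*, -0.65 to -0.13 for *Slc17a6*, -0.14 to -0.07 for *Gad1*, -0.028 to 0.086 for *Gad2* and 0.02 to 0.12 for *Slc32a1*, and the difference in the log2 ratio of *Slc17a7* to *Gad1* from -0.026 to 0.096. The number of genes past the threshold, 208, was 84 with more than 1 CPM, 103 with no filter, 734 and 752 with DESeq2 with and without prior, 90 with the replicate block, 1 with the gene-length offset, 2 with both, and 0 to 368 with 1 library left out (0 without control library 1, 368 without control library 2, 130 without control library 3, 4 without control library 4, and 13, 269, 9 and 17 without treated libraries 1 to 4). The causes were not tested. With 0 calls without control library 1, edgeR had 1568 genes at an unadjusted p under 0.05.

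The titles do not say whether same-numbered libraries of the groups are pairs. The correlations of their deviations were 0.31, 0.09, -0.13 and 0.17, and 2 of 4 controls were most like the treated library of their own number. *Slc17a6* was highest in library 3 and lowest in library 2 of both groups. These values do not settle the pairing, and the numbers were not taken as pairs in the main fit. With the replicate block the log2 fold changes were -0.07 for *Slc17a7*, -0.41 for *Slc17a6*, -0.11 for *Gad1*, 0.018 for *Gad2* and 0.06 for *Slc32a1*. That of *Slc17a6* then had a standard error of 0.149, against 0.281 without the block (edgeR, unadjusted p = 0.0267, adjusted p = 0.189). In the main fit the 95% interval of *Slc17a6* ran from -52.6% to 11.8%, so that only larger changes lie outside it. Counting error was 0.576% to 4.43% of a member's mean count, below the spread between libraries.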
